A study of Mus musculus and Homo sapiens with 14 samples.

Results

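This account follows Trp53, the mouse gene for the tumour suppressor p53, and 9 genes that p53 is known to switch on (Cdkn1a, Mdm2, Ccng1, Phlda3, Bax, Zmat3, Sesn1, Eda2r and Trp53inp1) through 5 mouse cell culture conditions. The genes were taken by symbol, and each was found once among the 35288 gene identifiers that both mouse tables list. Oli-neu is a mouse oligodendrocytic line, labelled as precursors, which in the brain mature into the cells that make myelin. MB1 is a line of Sonic hedgehog medulloblastoma cells, set up from tumours taken at postnatal day 12 from Atoh1-cre:SmoM2 mice, in which Cre under Atoh1 control switches on an activated Smoothened receptor in granule neuron progenitors. D341, a human Group 3 medulloblastoma line, entered only as a partner of Oli-neu, and its own libraries were not analysed here. Oli-neu was grown alone, with MB1 or with D341, and MB1 was grown alone or with Oli-neu, with 2 biological replicates per condition and 10 libraries in all. All cells, controls included, grew in DMEM/F-12 with B-27 and N-2 supplements, penicillin and streptomycin, 20 ng/mL of EGF and 20 ng/mL of basic FGF. In co-culture the lines were kept on either side of a 30 mm insert membrane with pores of 0.4 µm. No condition was labelled as a treatment that damages DNA, the length of co-culture was not given in the sources used here, and each tissue is represented by 1 line, so the line and the cell type cannot be told apart. Whether the replicates were separate cultures grown at different times was not stated, so the spread between them may be partly technical.

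p53 is a transcription factor that is made all the time and destroyed almost as fast, because its own target Mdm2, a ubiquitin ligase, marks it for the proteasome. Kinases that sense DNA breaks, and the p19ARF product of Cdkn2a, which binds Mdm2, let p53 protein accumulate, so the activity of p53 is set mainly at the protein and is poorly read from the level of its own mRNA. Active p53 binds a paired DNA element and raises genes for cell cycle arrest, cell death, repair and its own restraint; in Sonic hedgehog medulloblastoma, loss of p53 is a known mark of aggressive disease.

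Promoter sequence was examined first, since all 9 targets are known as genes that p53 switches on. Binding of p53 was not measured here. RefSeq start sites on the mouse build GRCm38.p6 were matched for 8 of the 10 genes, with 10 windows of 300 bases, each from 250 bases before to 50 bases after a start. Zmat3 and Trp53inp1 were not among them. The p53 response element was searched as 2 arms of 10 bases separated by at most 1 base, each arm being 3 purines, C, A or T in the next 2 places, G and 3 pyrimidines. C and G of each arm had to match, up to 2 other mismatches were allowed, and the element reads the same on both strands. The 3 windows with a match are printed here from 5′ to 3′ on the strand of the gene, with the matched element in capitals, because they belong to 3 genes whose levels are described afterwards.
Cdkn1a, chr17:29090729-29091028, plus strand: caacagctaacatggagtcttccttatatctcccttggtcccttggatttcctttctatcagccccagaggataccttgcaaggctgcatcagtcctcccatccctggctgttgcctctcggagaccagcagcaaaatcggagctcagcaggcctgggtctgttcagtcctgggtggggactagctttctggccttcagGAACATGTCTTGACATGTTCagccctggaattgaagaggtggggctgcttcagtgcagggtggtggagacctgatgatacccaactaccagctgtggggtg
Ccng1, chr11:40755237-40755536, minus strand: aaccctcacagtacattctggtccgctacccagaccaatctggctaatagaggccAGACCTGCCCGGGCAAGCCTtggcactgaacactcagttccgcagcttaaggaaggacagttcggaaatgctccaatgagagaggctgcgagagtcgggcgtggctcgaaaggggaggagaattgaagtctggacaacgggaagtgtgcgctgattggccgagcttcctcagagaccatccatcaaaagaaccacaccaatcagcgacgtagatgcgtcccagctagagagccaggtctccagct
Bax, chr7:45466849-45467148, minus strand: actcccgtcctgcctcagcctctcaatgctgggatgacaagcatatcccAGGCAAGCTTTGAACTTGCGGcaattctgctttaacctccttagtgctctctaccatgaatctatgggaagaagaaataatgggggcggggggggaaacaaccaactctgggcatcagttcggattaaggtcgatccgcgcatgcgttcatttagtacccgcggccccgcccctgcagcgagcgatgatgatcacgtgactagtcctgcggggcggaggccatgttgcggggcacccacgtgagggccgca

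In Cdkn1a the element began 51 bases before the upstream of its 2 listed starts and departed from the motif at 1 base. The Ccng1 element began 195 bases before the start, also with 1 mismatch, and the Bax element 201 bases before it, with 2 mismatches and a spacer of 1 base. Such a match was present in 224 of 32851 windows of the same length (0.682%). With at most 1 mismatch, 36 windows had one (0.11%). Of 35 other listed p53 targets with a window, 3 had a match (8.57%). A match is a description of letters and not of binding, and for Trp53, Mdm2, Phlda3, Sesn1, Eda2r and the downstream start of Cdkn1a these letters were not in the window examined.

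Values are TPM, transcript abundances that are corrected for transcript length and scaled to a total of 1000000 in each library, so levels can be set side by side between genes. The libraries held 11596 to 12338 genes at 1 TPM or more, replicates correlated across genes with r between 0.955 and 0.979 (genes are not independent replicates), and the sequencing depth behind them is unknown. Pseudogenes made up 36.0% to 38.2% of the Oli-neu libraries and 25.2% to 26.8% of the MB1 libraries, and mitochondrially encoded genes 1.93% to 4.53% and 5.73% to 9.56%. The first principal component of the 6 Oli-neu libraries (53.6% of the variance) separated those numbered 1 from those numbered 2 in each condition. The 10 oligodendrocyte lineage markers summed to 604 to 772 TPM in Oli-neu, and to 842 to 1330 TPM in MB1. The 10 granule neuron lineage markers summed to 120 to 180 TPM in MB1 against 8.33 to 11.03 TPM in Oli-neu. Most of the sum in MB1 came from Zic1 (63.7 to 125 TPM), Zic2 and Pax6. Barhl1 was listed at 0 in all 4 MB1 libraries. The defining marker Atoh1 was at most at 0.0143 TPM in MB1, alone or in co-culture, and at 0.0395 to 0.114 TPM in Oli-neu. Neurod1 overlapped between the lines, and Neurod2, Cntn2 and Eomes stayed under 0.1 TPM in every library. The 8 astrocyte markers summed to 473 to 620 TPM in MB1 and 177 to 223 TPM in Oli-neu. Most of that sum in MB1 came from Slc1a3 (324 to 419 TPM). S100b, the largest part of the sum in Oli-neu, ran the other way, at 137 to 172 TPM in Oli-neu and 37.9 to 44.9 TPM in MB1. The 8 microglial markers stayed under 0.72 TPM in sum, with C1qa and C1qb listed at 0 throughout. In bulk RNA, fewer cells of a kind and less RNA per cell cannot be told apart.

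In TPM, the mRNA of p53 itself was at nearly the same level in both lines. Trp53 (chromosome 11, 69580359 to 69591873, plus strand, GRCm38) was at 39.6 and 42.6 TPM in Oli-neu alone, 36.9 and 42.2 TPM with MB1, and 34.2 and 44.3 TPM with D341. In MB1 it was at 45.5 and 45.6 TPM alone and 41.8 and 39.6 TPM with Oli-neu. By mean, MB1 alone stood highest at 45.5 ± 0.0339 TPM (SD, n = 2), above both libraries of Oli-neu alone, and the other 4 conditions followed with overlapping libraries down to Oli-neu with D341 at 39.2 ± 7.18 TPM (SD, n = 2). Of the 31-base sequences in Trp53 transcripts, 10.2% also occur in other genes, mostly in the pseudogene Trp53-ps, which was at 1.03 to 2.11 TPM in Oli-neu and at most 0.05 TPM in MB1.

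In each of the 9 targets, all 4 MB1 libraries were above all 6 Oli-neu libraries, while for Trp53 the libraries of the lines overlapped. Among all 13505 genes that reached 1 TPM in at least 2 libraries of either table, 38.6% had that pattern and 14.1% had the opposite one, so 9 of 10 stands beside a common background. Eda2r was under 1 TPM in every Oli-neu library. It entered this count through MB1 alone, so its place among the 9 was close to fixed. The median log2 difference between MB1 alone and Oli-neu alone was 1.72 over the 10 genes and 0.34 over all genes. The tables of the 2 lines were made separately, and these differences are a description with no test. The smaller share of pseudogenes and the larger share of mitochondrially encoded genes in MB1, and its higher granule neuron and astrocyte marker sums, go with the same split of libraries, and their part in it was not tested.

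**Figure D1:**
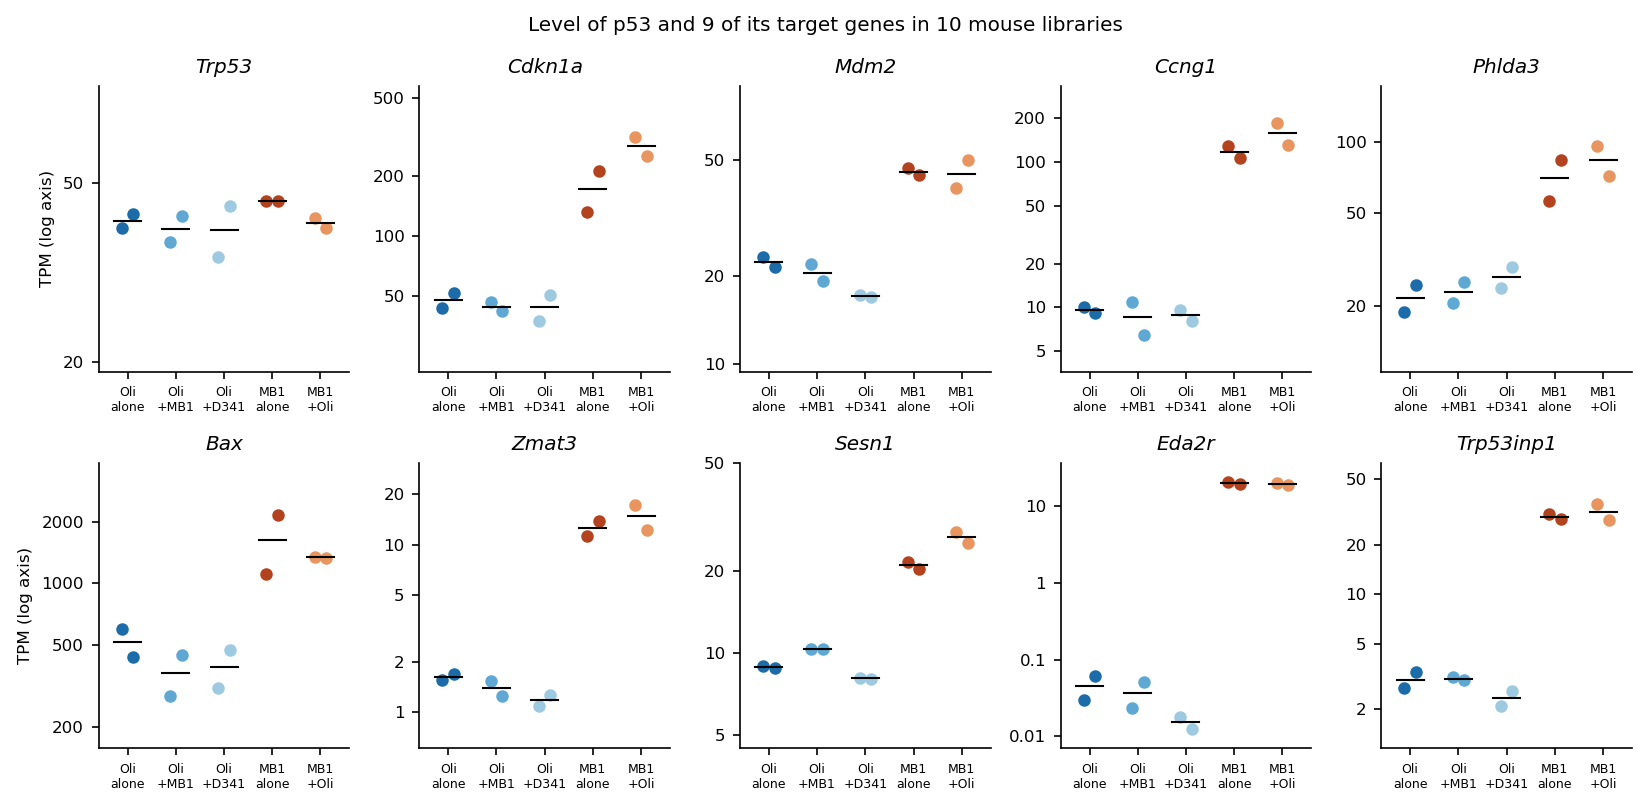
TPM of p53 and 9 targets in each of the 10 mouse libraries, on log axes that differ between panels; points are libraries and bars are means of 2. Trp53 lies between 34.2 and 45.6 TPM in all 5 conditions, while each target is higher in every MB1 library than in every Oli-neu library.

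Cdkn1a (chromosome 17, 29090976 to 29100727, plus strand) encodes p21, the inhibitor of cyclin-dependent kinases through which p53 halts the cell cycle. It was at 43.3 and 51.7 TPM in Oli-neu alone, 46.4 and 41.7 TPM with MB1, and 37.2 and 50.6 TPM with D341. In MB1 it reached 133 and 214 TPM alone and 318 and 253 TPM with Oli-neu. The order by mean was MB1 with Oli-neu (285 ± 45.8 TPM, SD, n = 2), MB1 alone (173 ± 57.6 TPM) and then the 3 Oli-neu conditions, whose libraries overlapped one another. An antisense gene, AC167363.2, overlaps Cdkn1a and shares 244 of its 3547 sequences of 31 bases; whether the counting used strand is not given in the sources used here.

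Phlda3 (chromosome 1, 135766119 to 135769136, plus strand), whose product competes with Akt for membrane lipids, was at 18.9 to 29.4 TPM over the Oli-neu libraries. It was at 56.4 and 84.2 TPM in MB1 alone and at 96.4 and 71.5 TPM in MB1 with Oli-neu. Ccng1 (chromosome 11, 40748552 to 40755311, minus strand) encodes cyclin G1, which recruits a phosphatase to Mdm2. Its levels in Oli-neu were 10.1 and 9.14 TPM alone, 10.8 and 6.47 TPM with MB1, and 9.56 and 8.00 TPM with D341, against 129 and 106 TPM in MB1 alone and 186 and 131 TPM in MB1 with Oli-neu. The median over MB1 libraries was 14.0 times that over Oli-neu libraries for Ccng1 and 3.22 times for Phlda3.

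Mdm2 (chromosome 10, 117688875 to 117710758, minus strand), the ligase that closes the feedback loop, differed less between the lines. It was at 23.2 and 21.5 TPM in Oli-neu alone, 22.0 and 19.2 TPM with MB1 and 17.2 and 16.9 TPM with D341. In MB1 it was at 47.0 and 44.4 TPM alone and 40.04 and 49.9 TPM with Oli-neu, so the median ratio of the lines was 2.25. Its partner Mdm4, which also holds p53 inactive, overlapped between the lines at 8.65 to 15.7 TPM and 11.7 to 22.2 TPM.

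Bax (chromosome 7, 45461697 to 45466898, minus strand) encodes a protein that permeabilizes the outer mitochondrial membrane in apoptosis. It was the most abundant of the 10 genes in every library. Its levels were 598 and 437 TPM in Oli-neu alone, 283 and 446 TPM with MB1 and 309.8 and 473 TPM with D341, and 1112 and 2159 TPM in MB1 alone and 1350.5 and 1332 TPM with Oli-neu. The replicates of MB1 alone thus differed for Bax by more than the means of the 2 MB1 conditions did. Of Bax sequences of 31 bases, 11.1% are shared with other genes, mainly Gm45808, which was at most at 0.11 TPM.

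Sesn1 (chromosome 10, 41809935 to 41908424, plus strand) encodes sestrin 1, a stress protein that restrains mTORC1. Its replicates were close to one another: 8.95 and 8.82 TPM in Oli-neu alone, 10.3 TPM in both libraries with MB1, and 8.08 and 8.02 TPM with D341. MB1 had 21.6 and 20.3 TPM alone and 27.8 and 25.4 TPM with Oli-neu, and no 2 of the 5 conditions overlapped. Zmat3 (chromosome 3, 32334792 to 32366014, minus strand), an RNA-binding protein that alters splicing, was at 1.10 to 1.69 TPM in Oli-neu and at 11.3 to 17.2 TPM in MB1. Trp53inp1 (chromosome 4, 11156431 to 11174379, plus strand), which takes part in autophagy and cell death, was at 2.08 to 3.34 TPM in Oli-neu and at 28.2 to 35.1 TPM in MB1.

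Eda2r (chromosome X, 97333840 to 97377216, minus strand) showed the widest gap. This receptor for ectodysplasin A2 was at 0.0126 to 0.0606 TPM in Oli-neu, too little to enter the tests there, and at 20.4 and 19.2 TPM in MB1 alone and 20.0 and 18.5 TPM in MB1 with Oli-neu. A ratio against so low a level is not given.

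The separation of the lines was then recomputed with other scalings. With median-ratio scaling over the 10 columns, all 9 targets remained higher in every MB1 library, where 26.6% of all genes did so, and the smallest of their log2 differences between the lines grown alone was 0.60. Trp53 changed sign, from a log2 difference of 0.15 to -0.25 with median-ratio scaling and to -0.08 with protein-coding genes alone. With median-ratio scaling all 4 MB1 libraries were below all 6 Oli-neu libraries for Trp53. The share of all genes below in that scaling was not computed. No direction is therefore given for Trp53 between the lines, and its near equality holds for TPM only.

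**Figure D2:**
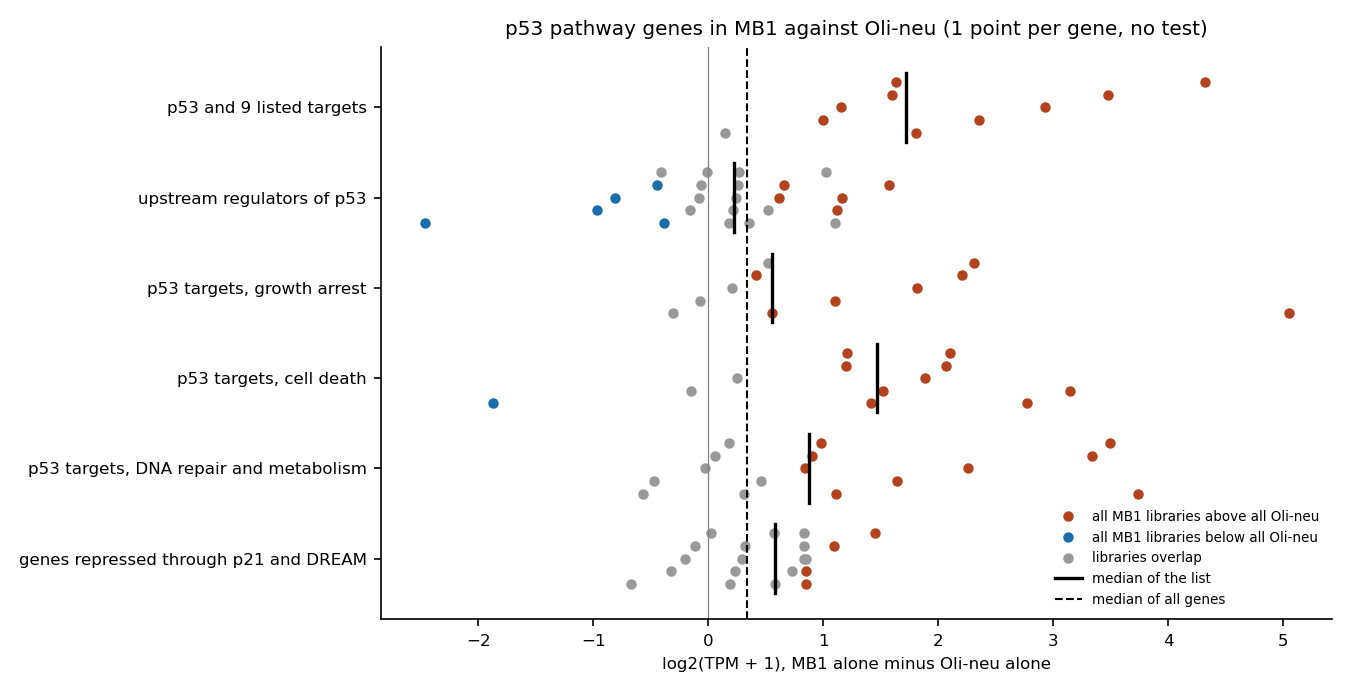
Log2 difference between MB1 alone and Oli-neu alone for p53 with 9 listed targets and for 5 other lists of p53 pathway genes; points are genes and the dashed line is the median of all genes at 0.34. The 9 targets other than Trp53 lie between 1.00 and 4.32, and Trp53 lies at 0.15.

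Genes that act on p53 were spread on both sides. Of 24 listed regulators at 1 TPM or more, 5 were higher and 5 lower in all MB1 libraries (all genes: 38.6% and 14.1%), with a median difference of 0.23. Cdkn2a, which encodes p16INK4a and p19ARF from overlapping frames, was at 122 to 195 TPM in Oli-neu and at 20.7 to 38.03 TPM in MB1, lower in every MB1 library, and its TPM does not separate the 2 products. Chek2, a kinase that responds to DNA breaks, overlapped between the lines at 17.9 to 77.1 and 14.96 to 74.3 TPM, and so did Atm and Usp7. For Chek2 the Oli-neu libraries numbered 1 were at 17.9 to 22.2 TPM and those numbered 2 at 58.4 to 77.1 TPM. MB1 had 20.5 and 74.3 TPM alone and 18.1 and 14.96 TPM with Oli-neu. Its overlap thus goes with a split by replicate number and does not show similar levels. Ppm1d, the phosphatase that dampens the same pathway and is itself a p53 target, was at 4.64 to 5.63 TPM in Oli-neu and 6.80 to 9.52 TPM in MB1. The p53 relatives Trp63 and Trp73 stayed at or below 0.106 and 0.202 TPM.

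Further p53 targets were counted by list, beside the same background (38.6% of all genes higher and 14.1% lower) and with no test of the difference. For growth arrest, 7 of 11 genes at 1 TPM or more were higher in every MB1 library and 0 lower. Of these, Rprm and Epha2 were under 1 TPM in every Oli-neu library. They entered the count through MB1 alone, so their place among the 7 was close to fixed. Rprm, which arrests cells at G2, was at 0.142 to 0.461 TPM in Oli-neu and at 35.1 to 48.4 TPM in MB1, and the antiproliferative Btg2 at 1.07 to 2.20 and 12.1 to 15.8 TPM; Gadd45a overlapped at 20.8 to 27.7 and 13.3 to 34.9 TPM.

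For cell death, 9 of 12 were higher and 1 lower (all genes: 38.6% and 14.1%). Fas, Pmaip1, Perp and Tnfrsf10b were under 1 TPM in every Oli-neu library. They entered through MB1 alone, so their place among the 9 was close to fixed. The death receptor Fas was listed at 0 to 0.0991 TPM in Oli-neu and at 5.84 to 13.4 TPM in MB1, and the BH3-only gene Pmaip1 (Noxa) at 0 to 0.0240 and 2.54 to 5.41 TPM. Bbc3 (Puma), also BH3-only, was at 8.90 to 19.2 and 20.4 to 53.5 TPM. The nuclease gene Aen was at 4.16 to 9.33 and 55.5 to 68.0 TPM, while Pmp22, a myelin gene as well as a listed target, ran the other way at 58.3 to 70.6 and 13.1 to 17.4 TPM. For DNA repair and metabolism, 9 of 16 were higher and 0 lower (all genes: 38.6% and 14.1%), among them the secreted Gdf15 at 0.141 to 0.226 and 11.2 to 34.4 TPM and the epoxide hydrolase Ephx1 at 21.7 to 32.0 and 261 to 362 TPM. Gdf15 too entered through MB1 alone, so its place in the count was close to fixed. The other 7 of the 16, Xpc, Ddb2, Polh, Rrm2b, Fdxr, Gls2 and Sco2, overlapped between the lines. Apart from the genes that the rule always names by level, those quoted here from the lists were chosen after their values were seen. Of the 20 cell cycle genes that p21 represses through the DREAM complex, 4 were higher and 0 lower (all genes: 38.6% and 14.1%).

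The remaining comparisons asked whether the genes changed within a line when it shared medium with another. Each used limma on log2(TPM + 1) over all genes tested, 12280 in Oli-neu and 12407 in MB1. Of these, 0 genes passed an adjusted p of 0.05 in the 4 comparisons (0% called in each), while at an unadjusted p under 0.05 there were 747, 1684, 630 and 1944 genes, in the order in which the comparisons are given here. An exact permutation test of 2 libraries against 2 cannot give a two-sided p below 0.333. All values below are therefore measured differences that did not pass the test, and the median of all genes, which lay below 0 in each comparison, is given beside them.

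In Oli-neu grown with MB1, none of the 9 genes tested was called, and the smallest adjusted p was 0.836. Sesn1 was the sole gene with both co-culture libraries higher (all genes: 10.1%), with a log2 fold change of 0.19 (SE 0.088). Zmat3 was the sole gene with both lower (all genes: 24%), at -0.14 (SE 0.14). Bax had the largest size of difference at -0.52 (SE 0.33), but its libraries overlapped: replicate 1 of the co-culture differed from replicate 1 alone by -1.08, and replicate 2 from replicate 2 by 0.03. Trp53 differed by -0.06 (SE 0.17) and Cdkn1a by -0.10 (SE 0.19). The median was -0.10 over the 9 genes and -0.06 over all genes.

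In Oli-neu grown with D341, which shares its control libraries with the comparison above, none of the 9 was called either. Both co-culture libraries were lower for 4 of 9 (all genes: 44%) and higher for 0 (all genes: 7.12%). Mdm2 had the smallest p of the 9: its 17.2 and 16.9 TPM were below the 23.2 and 21.5 TPM of Oli-neu alone, a log2 fold change of -0.37 (SE 0.12, limma adjusted p = 0.335). Zmat3 (-0.27), Trp53inp1 (-0.27) and Sesn1 (-0.13) were the other 3. Phlda3 alone had a higher mean, by 0.29 (SE 0.20). Its libraries overlapped between the conditions, but in Oli-neu same-numbered libraries deviated together, and within numbers Phlda3 was higher by 0.32 and 0.25 (limma adjusted p = 0.525, and 0.213 with the replicate number as a block). The median of the 9 was -0.13, and that of all genes -0.16. With median-ratio scaling the median of all genes was 0.00094, that of the 9 was 0.04, and Sesn1 went to 0.04, so no direction is given for Sesn1 here. The oligodendrocyte marker sum was 691 to 760 TPM in Oli-neu alone, 685 to 772 TPM with MB1 and 604 to 621 TPM with D341, and the sum of 8 fibroblast and mural markers was 95.9 to 101 TPM, 74.6 to 87.3 TPM and 61.3 to 74.3 TPM. Nearly all of the latter sum was Col3a1, at 57.7 to 94.5 TPM over the Oli-neu libraries. In these libraries Col1a2, Dcn, Rgs5 and Acta2 stayed at or below 0.11 TPM, and Pdgfrb was listed at 0. The part of either sum in these values was not tested.

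The regulator Mdm4 differed more than any of the 9 in that comparison. It was at 15.01 and 15.7 TPM in Oli-neu alone, 13.1 and 11.9 TPM with MB1 and 8.65 and 10.2 TPM with D341. The log2 fold change was -0.28 (SE 0.12, limma adjusted p = 0.828) with MB1 and -0.65 (SE 0.12, limma adjusted p = 0.320) with D341. The kinase gene Atm was also lower with both partners, at -0.58 (SE 0.19) and -0.57 (SE 0.19), where the value with MB1 was -0.82 without replicate 1 of that co-culture and -0.33 without replicate 2. So were the apoptosis gene Siva1, at -0.51 and -0.63 (SE 0.14 for both), and the glutaminase gene Gls2, at -0.49 and -0.43 (SE 0.14 for both). These pairs of values share the libraries of Oli-neu alone, and none passed the test.

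Set directly against each other, the Oli-neu co-cultures differed most for Sesn1, at 8.08 and 8.02 TPM with D341 and 10.3 TPM in both libraries with MB1. The log2 difference was -0.32 (SE 0.088, limma adjusted p = 0.839). Mdm2 (-0.26) and Trp53inp1 (-0.29) were also lower in both D341 libraries, which makes 3 of 9 lower (all genes: 28.8%) and 0 higher (all genes: 6.6%). The median of the 9 was -0.02, against -0.09 for all genes, and none was called.

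MB1 grown with Oli-neu showed the largest measured difference of any of the 10 genes, in Cdkn1a. The co-culture libraries at 318 and 253 TPM were both above the 133 and 214 TPM of MB1 alone, a log2 fold change of 0.75 (SE 0.28, limma adjusted p = 0.314). Between libraries numbered 1 the difference was 1.26, and between those numbered 2 it was 0.24. It was 0.40 without replicate 1 of MB1 alone and 1.09 without replicate 2, and lay between these with a co-culture library left out. Ccng1 (0.41, SE 0.23) and Sesn1 (0.33, SE 0.15) were the other genes with both co-culture libraries higher, so 3 of 10 had that pattern (all genes: 10.9%). Their adjusted p values by limma were 0.412 and 0.356. Ccng1 was at 0.17 without replicate 1 of the co-culture and at 0.66 without replicate 2. Marker sums were split in the same way. The oligodendrocyte sum was 1229 to 1330 TPM in MB1 alone and 842 to 974 TPM with Oli-neu, the granule neuron sum 120 to 133 and 152 to 180 TPM, and the astrocyte sum 473 to 506 and 605 to 620 TPM. In the granule neuron list Zic1 went from a mean of 74.0 to 113 TPM, while Pax6 (-0.23) and Barhl2 (-0.24) were lower in both co-culture libraries. In the astrocyte list Aldh1l1 and Gja1 overlapped between the conditions, as did Cspg4, Mbp and Ptprz1 in the oligodendrocyte list. Their part in the values of these genes was not tested.

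The other targets in MB1 did not share that separation. Phlda3 (0.27), Zmat3 (0.21), Trp53inp1 (0.09), Mdm2 (-0.03), Eda2r (-0.04) and Bax (-0.21) had overlapping libraries. Trp53 itself was lower in both co-culture libraries by 0.16 (1 of 10 lower, all genes: 41.5%). The median of the 10 was 0.15, and that of all genes was -0.17. With median-ratio scaling the median of all genes was -0.0028 and Trp53 was at 0.03, so its sign depends on the scaling, as do those of Mdm2 (0.16) and Eda2r (0.14).

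**Figure D3:**
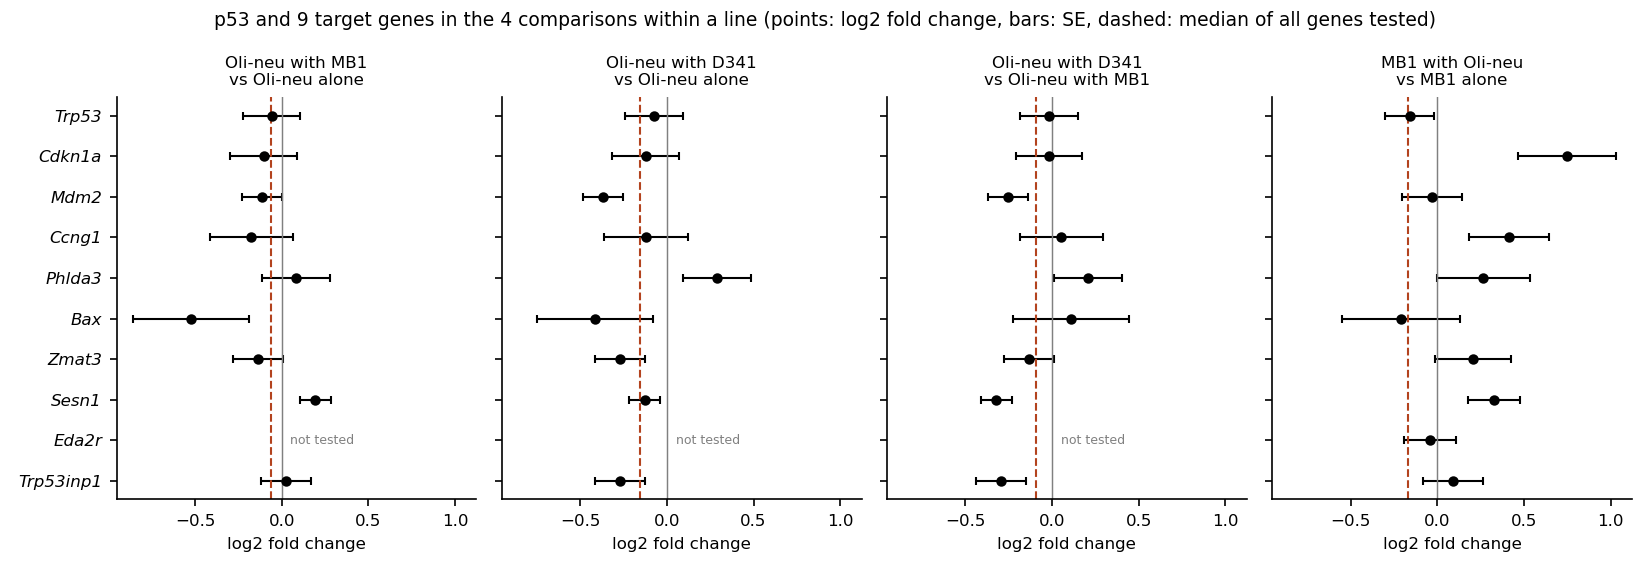
Log2 fold change of p53 and 9 targets in the 4 comparisons within a line, with bars of 1 SE from limma; the dashed line is the median of all genes tested, and Eda2r was not tested in Oli-neu. Cdkn1a in MB1 with Oli-neu is the highest at 0.75 and Bax in Oli-neu with MB1 the lowest at -0.52, and no gene passed the test.

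Of the wider set of p53 targets in MB1, Fas had the smallest p. It was at 6.13 and 5.84 TPM in MB1 alone and at 11.8 and 13.4 TPM with Oli-neu, a log2 fold change of 0.96 (SE 0.16, limma adjusted p = 0.267), and both numbered pairs of libraries showed it (0.84 and 1.07). Gdf15, a secreted stress cytokine, was at 11.2 and 19.2 TPM alone and 34.4 and 23.5 TPM with Oli-neu, a fold change of 0.90 on the log2 scale (SE 0.32, limma adjusted p = 0.306), which was 0.54 without replicate 1 of MB1 alone and 1.26 without replicate 2. Psrc1, a microtubule-binding target, had 0.31 (SE 0.19), with 0.16 without replicate 1 of MB1 alone and 0.47 without replicate 2. Against these, Sesn2 (-0.53, SE 0.16) and Pidd1 (-0.37, SE 0.15), both also p53 targets, and Rap2b (-0.31, SE 0.14) were lower in both co-culture libraries.

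By list, 5 of 11 growth arrest targets, 5 of 12 cell death targets and 8 of 16 repair and metabolism targets had a higher mean in MB1 with Oli-neu, where 29.1% of all genes did. The medians were -0.03, -0.04 and 0.05, and 0 genes of any list were called. These counts depend on the scaling: with median-ratio scaling 9 of 11, 9 of 12 and 12 of 16 had a higher mean, with medians of 0.13, 0.13 and 0.22. The median of all genes was -0.0028 in that scaling. The share of 29.1% holds for TPM only, and the share of all genes in that scaling was not computed. Regulators of p53 had a lower mean in 21 of 24 (all genes: 70.9%), with a median of -0.27. The median was -0.45 without replicate 2 of the co-culture, and -0.13 without replicate 1 of the co-culture or of MB1 alone. With median-ratio scaling 13 of 24 were lower, with a median of -0.10 (all genes: a median of -0.0028, share lower not computed). The regulators with the smallest p by the naming rule were the checkpoint kinases Atr at -0.97 (SE 0.20) and Chek1 at -0.64 (SE 0.16), whose adjusted p by limma was 0.282 for both.

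The cell cycle genes that p21 represses through the DREAM complex had lower means throughout that comparison. All 20 were lower in mean in MB1 with Oli-neu (all genes: 70.9%), 18 with both libraries lower (all genes: 41.5%), with a median of -0.62. Plk1, a mitotic kinase, was at 35.0 and 29.9 TPM alone and 18.9 and 18.0 TPM with Oli-neu, a log2 fold change of -0.78 (SE 0.16, limma adjusted p = 0.282). Cdk1, the kinase that drives entry into mitosis, was at 240.3 and 224 TPM alone and 153 and 127 TPM with Oli-neu, a log2 fold change of -0.73 (SE 0.17, limma adjusted p = 0.282). With median-ratio scaling the median of the list was -0.43, and without replicate 1 of MB1 alone it was -0.41. These genes are general markers of dividing cells, and whether Cdkn1a has a part in their level was not tested.

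The same 20 genes were also lower in mean in Oli-neu with MB1 (20 of 20, all genes: 62.6%, median -0.32) and with D341 (20 of 20, all genes: 75.8%, median -0.29), 2 comparisons that share their controls. There the libraries of Cdkn1a overlapped. Birc5, which encodes survivin, was at 50.4 and 48.1 TPM in Oli-neu alone, 33.5 and 28.8 TPM with MB1, and 33.2 and 34.8 TPM with D341, with log2 fold changes of -0.65 and -0.52 (SE 0.12 for both) and limma adjusted p values of 0.715 and 0.320. With median-ratio scaling 15 of the 20 were lower with D341 and 20 with MB1. In that scaling the median of all genes was 0.00094 with D341 and -0.0058 with MB1. The shares of 62.6% and 75.8% hold for TPM with all libraries. Those for median-ratio scaling or with a library left out were not computed. A single library moved the value with MB1: without replicate 2 of that co-culture 14 of 20 were lower, with a median of -0.14, and without replicate 1 the median was -0.52. For the 3 other target lists the medians lay between -0.19 and -0.05 with MB1 and between -0.22 and -0.15 with D341, and 0 genes were called; median-ratio scaling moved the growth arrest list with D341 from -0.15 to 0.03.

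**Figure D4:**
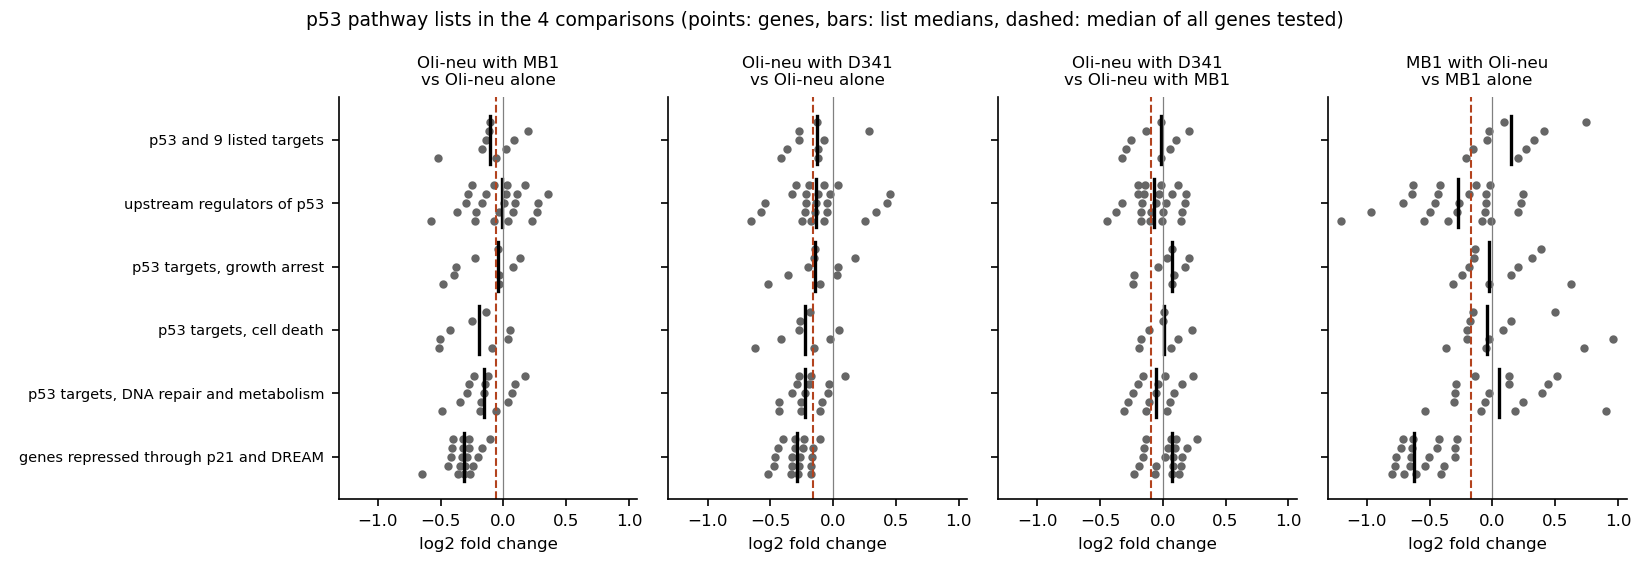
Log2 fold changes of the 10 genes and of 5 lists of p53 pathway genes in the 4 comparisons within a line; points are genes, and the dashed line is the median of all genes tested. The list of genes repressed through p21 and DREAM lies lowest in MB1 with Oli-neu, with a median of -0.62 where all genes have -0.17.

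Over the 6 Oli-neu libraries, 7543 genes were ranked by the likeness of their log2 pattern to that of Trp53 and of Cdkn1a. C1d was nearest to Trp53 (Pearson r = 0.99), followed by Dnaic2, Myl12b, Get4 and Zfp969 (0.98 each), and 137 genes exceeded 0.9. Mcfd2 was nearest to Cdkn1a (0.99), followed by Tprn, Stard4 and Fbxo9 (0.98 each), and 45 exceeded 0.9. The points are 6 libraries that fall by replicate number as well as by condition, and none of the other 9 genes was among the genes nearest to either.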

How the data were processed

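Poly(A) RNA was sequenced with a directional kit over 75 cycles on a NextSeq500, per the labels. The authors deposited TPM per gene in 1 table for each line, and the tools listed, with no role, in the submitters' processing notes are Salmon 0.14.1, DESeq2 1.22.2, FastQC 0.11.8 and MultiQC 1.7, beside the build GRCm38. No counts were used here, so depth is unknown and no counting interval is given.

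Symbols came from GENCODE M21 and matched 35099 of 35288 identifiers. A gene entered the test when 2 or more libraries of its table had 1 TPM or more. Limma 3.58.1 in R 4.3.3 was run with a trend on log2(TPM + 1), two-sided, once over the 6 Oli-neu and once over the 4 MB1 libraries. Benjamini-Hochberg adjustment covered all genes tested, at a threshold of 0.05. A fold change on this scale understates that of low genes. Likeness was Pearson's r over 6 libraries, among protein-coding genes with a mean of at least 5 TPM; 1 gene of that ranking is not reported here. The procedure was tested on simulated data.

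Named were the 10 genes, 10 regulators and targets given by level (Mdm4, Cdkn2a, Atm, Chek2, Ppm1d, Usp7, Bbc3, Pmaip1, Gadd45a and Fas), and, from each of 5 pathway lists and each comparison, up to 2 genes whose libraries did not overlap, with a mean of at least 5 TPM. The genes and lists were chosen with earlier results of these data known. Alternatives were other pseudocounts, filters, scalings, limma settings, the replicate number as a covariate and each library left out; those for levels across lines, for pathway genes and lists, and the crossed replicate numbers were chosen after seeing the data. The other cell type markers, endothelial and fibroblast, summed to 0.560 to 4.43 TPM and, for fibroblasts, to 61.3 to 101 TPM in Oli-neu (nearly all Col3a1) and 0.428 to 1.26 TPM in MB1.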

Additional observations from a re-analysis of the deposited data

Results flagged for a closer look

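Psrc1, a microtubule-binding p53 target, differed in opposite directions in the lines on the TPM scale. Both MB1 libraries grown with Oli-neu were above both grown alone (log2 fold change 0.31), while both Oli-neu libraries grown with MB1 were below both grown alone (-0.23), a gap of 0.55. Against Oli-neu grown with D341 (-0.15) the gap was 0.46. The Oli-neu values of Psrc1 were not followed singly under the alternative settings. With D341, median-ratio scaling moved the median of its growth arrest list from -0.15 to 0.03, so no direction is given for Psrc1 there. Sesn1 was higher in both MB1 co-culture libraries (0.33) and lower in both Oli-neu libraries grown with D341 (-0.13), also a gap of 0.46; the value of -0.13 became 0.04 with median-ratio scaling. None of these differences between lines was tested, because the tables of the lines were made separately, and the 2 Oli-neu values of Psrc1 share the libraries of Oli-neu alone.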

How the results depend on the processing

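Of 549 values of the 10 genes under alternative settings, 514 kept their direction and their side of the threshold, 35 changed sign (10 with median-ratio scaling, 25 with a library left out) and 0 passed the threshold. The smallest adjusted p of any of them under any setting was 0.526, 0.185, 0.498 and 0.189 in the 4 comparisons, in the order of the report. All 510 values of named pathway genes, each in the comparison that named it, kept their sign.

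The count of genes called, 0 in each comparison, was 3 (pseudocount 0.1 TPM), 1 (no filter), 2 (median-ratio scaling), 2 (protein-coding genes only), 1 (limma without a trend) and 0 with each library left out for Oli-neu with MB1. For Oli-neu with D341 it was 3 without a filter, 1 with protein-coding genes only and 0 to 2 with a library left out, 2 being without replicate 2 of the co-culture. Between the Oli-neu co-cultures it was 6 without a filter, 1 with protein-coding genes only, 1 without a trend and 0 with each library left out. For MB1 it was 5 with protein-coding genes only, 9 with robust limma, and 0 to 68 with a library left out: 68 without replicate 1 of MB1 alone and 1 without replicate 2.

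Median-ratio scaling, which removed the negative median of all genes, gave Trp53 0.0059 (Oli-neu with MB1), 0.11 (with D341), 0.10 (D341 against MB1) and 0.029 (MB1). It gave Cdkn1a 0.061 (with D341) and 0.10 (D341 against MB1), Ccng1 0.048 and Sesn1 0.040 (with D341), and Mdm2 0.16 and Eda2r 0.14 (MB1).

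With libraries left out, these log2 values crossed 0. In Oli-neu with MB1 they were Trp53 (-0.15 to 0.038), Cdkn1a (-0.23 to 0.020), Ccng1 (-0.51 to 0.16), Phlda3 (-0.10 to 0.26) and Trp53inp1 (-0.094 to 0.14). With D341 they were Trp53 (-0.26 to 0.11) and Cdkn1a (-0.34 to 0.095). Between the co-cultures they were Trp53 (-0.20 to 0.16), Cdkn1a (-0.23 to 0.20), Ccng1 (-0.28 to 0.38) and Bax (-0.22 to 0.44). In MB1 they were Mdm2 (-0.18 to 0.13), Zmat3 (-0.019 to 0.43), Trp53inp1 (-0.064 to 0.24), Eda2r (-0.096 to 0.013), Phlda3 (-0.021 to 0.55) and Bax (-0.69 to 0.27). The cause was not tested.

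The median of the 9 genes in Oli-neu with D341 was 0.040 with median-ratio scaling and -0.33 to -0.13 with a library left out. The median difference between the lines was 2.29 with the co-culture libraries.

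Same-numbered libraries deviated together in Oli-neu (r of deviations 0.618, 0.593 and 0.614) and not in MB1 (-0.115); with only 2 numbers they were not taken as pairs. With the replicate number as a block, 0 genes were called in each comparison, and with crossed numbers in MB1, 0. The unknown depth limits what can be said of the lowest levels.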
